A study of Mus musculus with 19 samples.

Results

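Endothelial cells line the blood vessels of the developing neocortex. The 10 genes described here, *Flt1*, *Kdr*, *Tek*, *Tie1*, *Pecam1*, *Cdh5*, *Cldn5*, *Esam*, *Emcn* and *Egfl7*, were chosen by name as markers of these cells, a lineage that Emx1-Cre does not recombine, and all 10 were found among the 51912 genes counted in each library. RNA of cerebral cortex at E13.5 (embryonic day 13.5) had been sequenced as 1 library per embryo from 7 control (ctrl) embryos, 5 cKO-E embryos, which carried Emx1-Cre and a conditional deletion of *Ino80*, and 7 dKO-E embryos, which carried Emx1-Cre and conditional deletions of both *Ino80* and *Trp53*, the p53 gene. The mutants were Emx1 Cre/+ with the Ino80 fl/fl alleles, and dKO-E had the Trp53 fl/fl alleles as well. *Ino80* encodes the core ATPase of a chromatin remodelling complex. All embryos were on a mixed C57BL/6 and 129 background, and the labels give no further allele for ctrl. Emx1-Cre is active in the neural progenitors of the dorsal telencephalon and in the neurons and glia that come from them, so the deletions are directed at part of the cells in the tissue. The embryos came from 7 litters, of which 4 gave ctrl, 5 gave cKO-E and 2 gave dKO-E embryos, and their libraries belonged to 3 batches, of which the third held 1 dKO-E library. Sex was 4 females and 3 males in ctrl, 4 females and 1 male in cKO-E, and 2 females and 5 males in dKO-E.

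Vessels reach the neocortex from a plexus that covers its surface and sprout inwards toward vascular endothelial growth factor (VEGF), which neural progenitors release. Endothelial cells sense VEGF through the receptor kinase encoded by *Kdr*, while the *Flt1* receptor binds VEGF tightly and limits what *Kdr* can bind. The kinases encoded by *Tek* and *Tie1* respond to angiopoietins and stabilise vessels, and the junctions between endothelial cells are built from the products of *Cdh5* (VE-cadherin), *Pecam1*, *Esam* and *Cldn5*, the last of which seals the blood-brain barrier.

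Depth differed between libraries, from 820915 to 8095810 counts in genes (median 2952788), and 3 counts of a gene were worth 0.379 CPM (counts per 1000000 of the library, after TMM scaling) in the deepest and 3.54 CPM in the shallowest. *Ino80* was at 121 ± 7.23 CPM in ctrl (range 111 to 129), 166 ± 17.7 CPM in cKO-E (range 139 to 182) and 186 ± 14.9 CPM in dKO-E (range 155 to 197) (mean ± SD of 7, 5 and 7 embryos). These counts cover the whole gene, most of which lies outside the deleted exons, so they do not check the deletion. *Trp53* was at 43.8 ± 5.6 CPM in ctrl, 39.2 ± 4.79 CPM in cKO-E and 34.5 ± 4.78 CPM in dKO-E (mean ± SD of 7, 5 and 7 embryos). The sex labels mismatched the sex-linked genes in 0 of the 19 libraries.

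RNA of these 10 genes was a small share of each library. The 10 genes together gave 4014 counts over all 19 libraries, of which *Kdr* contributed 23.5%, *Flt1* 22.2%, *Pecam1* 16.1%, *Cdh5* 10.5% and *Tek* 10.1%. The other 5 genes contributed between 1.49% and 5.83% each. Of the 190 values (10 genes in 19 libraries), 37 rested on 3 counts or fewer. Every gene but *Egfl7* was detected in every library. In bulk tissue a lower value can come from fewer endothelial cells or from less RNA per cell, and these cannot be told apart.

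The VEGF receptors had the highest CPM. *Kdr* (ENSMUSG00000062960.10, GRCm38 chromosome 5, 75932827 to 75978458, minus strand) ranged from 7.24 to 21.8 CPM in ctrl around a median of 15.3. In cKO-E it was at 14.6, 16.6, 19.2, 15.3 and 13.6 CPM, and in dKO-E it ranged from 5.27 to 26.4 around a median of 13.5. The cKO-E values all lay inside the ctrl range, and the dKO-E embryos included both the lowest and the highest values of the series. *Flt1* (ENSMUSG00000029648.13, chromosome 5, 147561604 to 147726011, minus strand) ranged from 11.5 to 20.6 CPM around a median of 12.7 in ctrl. It was at 18.0, 23.2, 13.6, 17.7 and 13.2 CPM in cKO-E and ranged from 7.86 to 19.4 around a median of 13.2 in dKO-E. The highest *Flt1* value belonged to cKO-E B and the lowest to dKO-E A, and the groups overlapped.

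Of the angiopoietin receptor kinases, *Tek* (ENSMUSG00000006386.15, chromosome 4, 94739289 to 94874976, plus strand) was at 6.62 ± 3.18 CPM in ctrl, 7.08 ± 2.67 CPM in cKO-E and 6.42 ± 3.74 CPM in dKO-E (mean ± SD of 7, 5 and 7 embryos). It was highest in dKO-E B at 13.3 and in ctrl F at 12.8 CPM, and lowest in dKO-E G at 2.11 CPM. *Tie1* (ENSMUSG00000033191.14, chromosome 4, 118471191 to 118490061, minus strand), which pairs with the *Tek* receptor, was measured from 1 to 25 counts per library. Its means were 2.75 ± 1.90 CPM in ctrl, 2.78 ± 0.885 CPM in cKO-E and 2.6 ± 0.802 CPM in dKO-E (mean ± SD of 7, 5 and 7 embryos).

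Among the junction and surface proteins, *Pecam1* (ENSMUSG00000020717.19, chromosome 11, 106654217 to 106750628, minus strand) was the gene whose groups lay furthest apart relative to their spread. It ranged from 5.41 to 11.4 CPM around a median of 8.82 in ctrl, was at 12.3, 12.6, 9.21, 11.8 and 10.5 CPM in cKO-E, and ranged from 8.59 to 14.8 around a median of 13 in dKO-E. The 2 lowest dKO-E embryos, at 8.59 and 8.79 CPM, fell inside the ctrl range and the other dKO-E embryos lay above it. *Cdh5* (ENSMUSG00000031871.9, chromosome 8, 104101625 to 104144511, plus strand) ranged from 3.62 to 7.57 CPM around a median of 7.06 in ctrl, was at 4.33, 8.32, 5.16, 2.36 and 6.78 CPM in cKO-E, and ranged from 1.87 to 14.5 around a median of 7.53 in dKO-E. Except for ctrl H at 3.62 CPM, the ctrl embryos were close together, whereas the dKO-E embryos included the lowest and the highest *Cdh5* values.

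*Esam* (ENSMUSG00000001946.14, chromosome 9, 37528078 to 37538319, plus strand) was at 3.76 ± 1.34 CPM in ctrl, 4.13 ± 1.18 CPM in cKO-E and 4.36 ± 1.68 CPM in dKO-E (mean ± SD of 7, 5 and 7 embryos). *Emcn* (ENSMUSG00000054690.17, chromosome 3, 137341067 to 137432185, plus strand), which encodes the surface sialomucin endomucin, was at 2.21 ± 0.943, 2.99 ± 1.01 and 2.28 ± 1.33 CPM in ctrl, cKO-E and dKO-E (SD, n = 7, 5 and 7). *Cldn5* (ENSMUSG00000041378.1, chromosome 16, 18776847 to 18778262, plus strand) rested on 1 to 16 counts per library and was at 1.24 ± 0.977, 1.39 ± 0.539 and 2.11 ± 1.41 CPM in the same order. Its highest value, 4.86 CPM, was in dKO-E E. For each of these genes the ranges of the 3 genotypes overlapped.

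*Egfl7* (ENSMUSG00000026921.18, chromosome 2, 26580014 to 26593120, plus strand), which encodes a protein that endothelial cells secrete into the vessel wall, had the fewest counts, 60 in all, and was at 0 counts in 5 libraries, 1 of ctrl, 1 of cKO-E and 3 of dKO-E. In those libraries a count of 0 allows between 1.12 and 3.54 CPM, which includes the values of most other embryos. The gene of the endothelial microRNA miR-126 lies within *Egfl7*, whose mature strand is shown to identify it, with the seed (bases 2 to 8) in capitals. It lies on chromosome 2 (26591402 to 26591423, plus strand) and is given as in RefSeq (GRCm38.p6).
mmu-miR-126a-3p: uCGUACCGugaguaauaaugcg
*Mir126a*, the gene of this microRNA, was at 0 counts in all 19 libraries. It overlaps annotated exon bases of *Egfl7*, where a read lying wholly in both would be ambiguous. The authors also enriched the libraries for longer products, which leaves out small RNA such as the mature strand. The counts of *Mir126a* therefore give no level of the microRNA. Of the 3581 exon bases of *Egfl7*, 401 (11.2%) also belong to exons of other genes, so part of its reads may have been set aside as ambiguous.

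**Figure D1:**
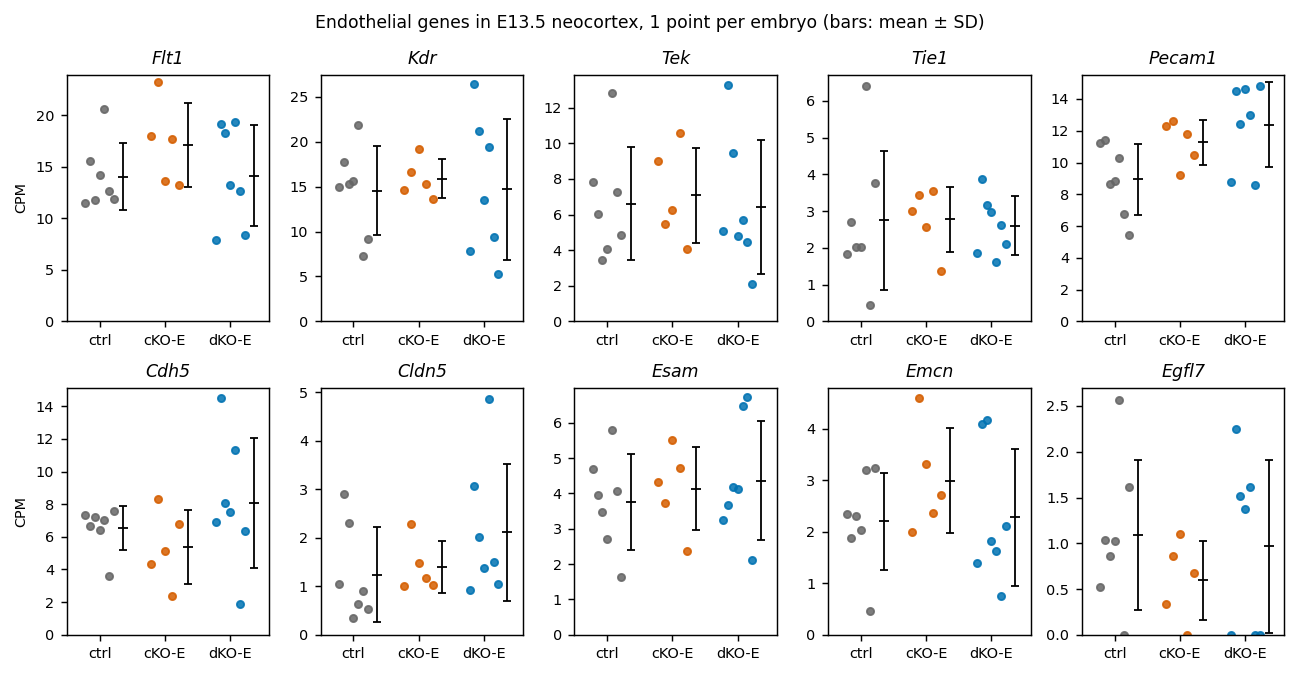
CPM of each of the 10 genes (vertical axes, each from 0) in ctrl, cKO-E and dKO-E embryos. Points are embryos, and the bars beside them are the mean ± SD of 7, 5 and 7 embryos. The genotypes overlap in every panel, and *Egfl7* was at 0 in 5 libraries.

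Per kilobase of exon, the genes lay in a narrower range. Over all 19 embryos, *Pecam1* was highest at 1.74 ± 0.421 CPM per kilobase (SD, n = 19), followed by *Kdr* at 1.66 ± 0.606, *Cdh5* at 1.62 ± 0.685, *Esam* at 1.42 ± 0.484, *Tek* at 1.41 ± 0.660, *Cldn5* and *Flt1*, the last at 1.10 ± 0.307. No gene of this upper group differed from its neighbour by more than the larger SD of the pair. *Flt1* was above *Tie1*, at 0.550 ± 0.257 CPM per kilobase, in 19 of 19 embryos, a gap of 1.81 times the larger SD. *Emcn* followed at 0.451 ± 0.205 and *Egfl7* at 0.255 ± 0.217 CPM per kilobase, again with gaps under 1 SD. In ctrl alone *Kdr* came first at 1.61 ± 0.547, then *Cdh5* at 1.56 ± 0.321 and *Pecam1* at 1.44 ± 0.361 (SD, n = 7), with gaps under 1 SD. These values take all annotated exons of a gene as its length, whichever transcripts the cells use.

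Summed over the 10 genes, the endothelial level differed more among embryos than among genotypes. In ctrl the sum ranged from 43.4 (ctrl H) to 91.2 CPM (ctrl F) around a median of 57.3. In cKO-E it was 68.9, 81.1, 67.4, 69.6 and 56.2 CPM. The dKO-E sums ranged from 43.9 (dKO-E A) to 105 (dKO-E B) around a median of 65.2. The means were 61.7 ± 15.6 CPM in ctrl, 68.7 ± 8.84 CPM in cKO-E and 68.1 ± 24.0 CPM in dKO-E (mean ± SD of 7, 5 and 7 embryos), so that cKO-E was 1.11 times and dKO-E 1.10 times ctrl, and dKO-E was 0.992 times cKO-E. All 3 ranges overlapped. The highest embryo was 2.42 times the lowest. The SD between embryos was 3.14 times that expected from counting in ctrl, 1.51 times in cKO-E and 4.48 times in dKO-E.

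The spread was present within litters. In litter 1, the sums of the 3 dKO-E embryos ran from 43.9 to 105 CPM, beside 63.2 and 69.8 CPM in their ctrl littermates. In litter 5, the ctrl embryos were at 57.3 and 91.2 CPM and the cKO-E embryo at 67.4. In litter 4 the ctrl embryo was at 57.3 and the cKO-E embryo at 81.1 CPM, and in litter 7 the ctrl embryos were at 43.4 and 49.7 and the cKO-E embryo at 56.2 CPM. The cKO-E embryo was thus above its ctrl littermates in litters 4 and 7 and between them in litter 5. Litter 2 held only dKO-E embryos, from 44.3 to 85.1 CPM. By batch, the means of ctrl, cKO-E and dKO-E were 61.9, 72.5 and 74.7 CPM in batch 1 (n = 4, 3 and 4) and 61.4, 62.9 and 46.4 CPM in batch 2 (n = 3, 2 and 2), so dKO-E was above ctrl in batch 1 and below it in batch 2.

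**Figure D2:**
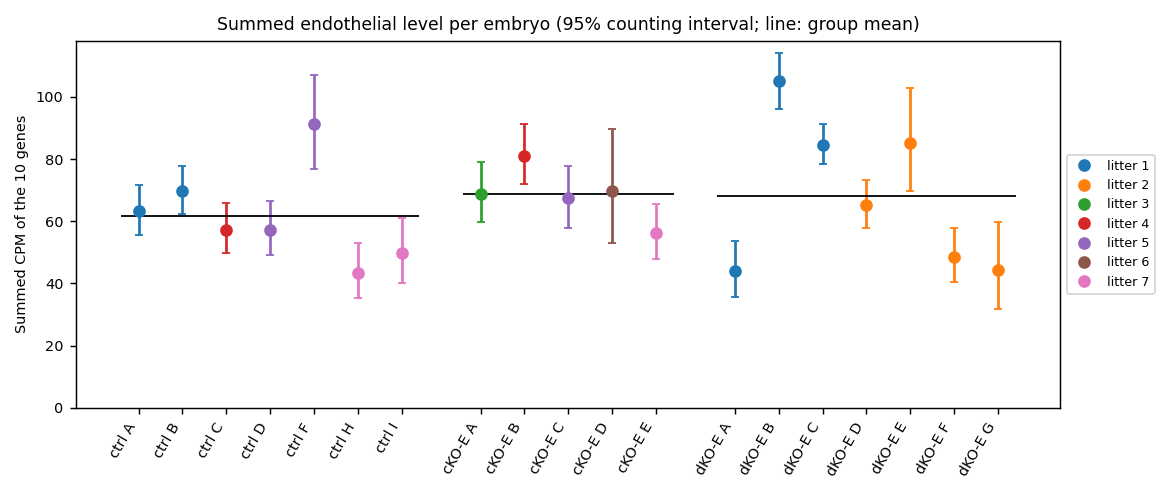
Summed CPM of the 10 endothelial genes (vertical axis) in each embryo (horizontal axis, by genotype), coloured by litter. Error bars are exact Poisson 95% intervals, which cover counting error only, and lines are group means (61.7, 68.7 and 68.1 CPM). In litter 1 the dKO-E embryos run from 43.9 to 105 CPM.

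Embryos tended to be high or low in several genes together. dKO-E C was above the median of all embryos in 10 of 10 genes, dKO-E B in 9 and ctrl F in 8, whereas dKO-E A was above it in 0, and ctrl H, cKO-E E and dKO-E G in 1 each. Over the 19 embryos, 43 of the 45 pairs of genes had a positive Pearson's r of log2(CPM + 0.5), with a median of 0.40. The VEGF receptors *Flt1* and *Kdr* had the highest r (0.78), followed by *Kdr* and *Egfl7* (0.75), and *Cdh5* with *Esam* the lowest (-0.27). These values share the library and its depth and are given as a description.

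The 4 embryos with the highest endothelial sums were also those with the most RNA of meningeal fibroblasts, the cells of the membranes that cover the cortex and carry the surface vessels. The sum of 18 meningeal markers, among them the collagen genes *Col1a1*, *Col1a2* and *Col3a1*, was 109 CPM in dKO-E B, 107 in ctrl F, 78.5 in dKO-E C and 57.5 in dKO-E E. In the other 15 embryos it was between 11.6 and 29.5 CPM. The endothelial sum was between 84.6 and 105 CPM in these 4 embryos and between 43.4 and 81.1 CPM in the others. *Col3a1* ranged from 0.783 to 35.3 CPM in ctrl, from 0 to 4.30 in cKO-E and from 0.462 to 36.4 in dKO-E. No meningeal marker was at 0 in every library. The part of the meninges in the endothelial level was not tested.

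Without these 4 embryos, the endothelial sum was 56.8 ± 9.37 CPM in ctrl, 68.7 ± 8.84 CPM in cKO-E and 50.5 ± 10 CPM in dKO-E (mean ± SD of 6, 5 and 4 embryos). The log2 ratio of the means was then 0.27 for cKO-E against ctrl, -0.17 for dKO-E against ctrl and -0.44 for dKO-E against cKO-E, compared with 0.15, 0.14 and -0.01 with all embryos. The dKO-E embryos that remained lay between 43.9 and 65.2 CPM and the cKO-E embryos between 56.2 and 81.1, so the groups still overlapped. The limit of 50 CPM of meningeal markers was set after the values had been seen, and it removed the embryos with the highest endothelial sums.

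Comparing cKO-E with ctrl asks whether deletion of *Ino80* in the neural lineage went with a change in vessel RNA. For single genes, no change passed the test. Of the 10 genes, 6 had enough counts to be tested (*Flt1*, *Kdr*, *Tek*, *Pecam1*, *Cdh5* and *Esam*), and edgeR's quasi-likelihood test called 0 of them at a false discovery rate (FDR) of 0.05, where 17.2% of the 11660 genes tested were called (7.31% higher and 9.88% lower in cKO-E). At an FDR of 0.001, the value of the study, 0 were called beside 3.38% of all genes. At an unadjusted p under 0.05 there were 0, beside 29.8% of all genes, and the likelihood-ratio test and DESeq2 called 0 as well. For 0 of the 10 genes were the groups apart without overlap, beside 8.17% of all genes. The median log2 fold change of the 6 genes was 0.11, beside 0.02 for all genes, with 5 above 0. *Flt1* came nearest, with a log2 fold change of 0.32 (SE 0.18, 95% interval -0.05 to 0.69, adjusted p = 0.234 from edgeR). That of *Pecam1* was 0.30 (interval -0.08 to 0.67) and that of *Kdr* 0.12 (interval -0.29 to 0.54). *Cdh5* was the 1 gene below 0, at -0.17 (interval -0.66 to 0.33). As folds, the intervals ran from 0.967 to 1.61 times ctrl for *Flt1*, from 0.816 to 1.45 for *Kdr*, from 0.664 to 1.64 for *Tek* and from 0.633 to 1.25 for *Cdh5*, and differences within them were not resolved.

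Against ctrl, dKO-E gave the same count of 0 of the 6 tested genes called at an FDR of 0.05, beside 15.5% of 11381 genes (5.45% higher and 10% lower), and 0 at 0.001, beside 2.58%. The likelihood-ratio test and DESeq2 called 0 too, and scaling by total counts called *Pecam1* (0.52, adjusted p = 0.0355 from edgeR). At an unadjusted p under 0.05, 1 gene passed, beside 29.6% of all genes. It was *Pecam1*, which encodes an adhesion molecule at endothelial contacts and is also found on blood cells, with a log2 fold change of 0.42 (SE 0.17, interval 0.06 to 0.77, adjusted p = 0.104 from edgeR). All 6 genes had estimates above 0, with a median of 0.20 beside 0.01 for all genes, of which 51.4% were above 0, but in batch 2 alone *Flt1* (-0.40), *Kdr* (-0.63), *Tek* (-1.12) and *Cdh5* (-0.90) were below it. The groups did not separate for any of the 10 genes (0, beside 4.23% of all genes). The estimates were 0.33 for *Cdh5* (interval -0.24 to 0.90), 0.21 for *Tek* (-0.43 to 0.85), 0.20 for *Esam* (-0.31 to 0.71), 0.14 for *Kdr* (-0.40 to 0.67) and 0.10 for *Flt1* (-0.28 to 0.48). Without the 4 embryos high in meningeal markers, those of *Flt1*, *Kdr*, *Tek* and *Cdh5* were -0.21, -0.46, -0.32 and -0.19, that of *Pecam1* was 0.36, and 0 genes were called. The embryos left out, ctrl F and dKO-E B, C and E, had the highest endothelial sums, so these lower values are not read as support. When dKO-E B alone was left out, *Kdr* came to -0.07 and *Tek* to -0.06.

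The mutants were also compared with each other, a comparison that shares its embryos with both others. Between dKO-E and cKO-E, 0 of the 6 genes were called at an FDR of 0.05, beside 15% of 11746 genes (5.59% higher and 9.42% lower in dKO-E), and 0 at 0.001, beside 3.13%. At an unadjusted p under 0.05 there were 0, beside 27.5%, and 0 by the likelihood-ratio test and DESeq2 at the FDR. The groups were apart for 0 of the 10 genes, beside 6.76% of all genes. *Cdh5* had the largest estimate, 0.50 (SE 0.33, interval -0.20 to 1.20, adjusted p = 0.361 from edgeR), and *Flt1* was the 1 gene below 0, at -0.21 (interval -0.64 to 0.22). The median was 0.12, beside 0.02 for all genes. This comparison moved most without the 4 embryos high in meningeal markers. *Kdr* was then at -0.67, *Flt1* at -0.62, *Tek* at -0.55 and *Cdh5* at -0.04, with 0 genes called by edgeR. In this comparison the embryos left out were dKO-E B, C and E and no cKO-E embryo. They were chosen after the values had been seen and had the highest endothelial sums. Lower dKO-E estimates follow from that choice and are not read as support.

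When every gene with at least 1 count was kept, all 10 could be fitted and 0 were called in each comparison. The intervals of the 4 added genes were wide. For *Egfl7* the estimates were -0.53 (-1.87 to 0.81), 0.20 (-0.96 to 1.36) and 0.77 (-0.49 to 2.03) in cKO-E against ctrl, dKO-E against ctrl and dKO-E against cKO-E. In the same order, those of *Cldn5* were 0.04, 0.53 and 0.51, those of *Emcn* 0.52, 0.27 and -0.20, and those of *Tie1* 0.09, 0.16 and 0.11, and every interval held 0.

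**Figure D3:**
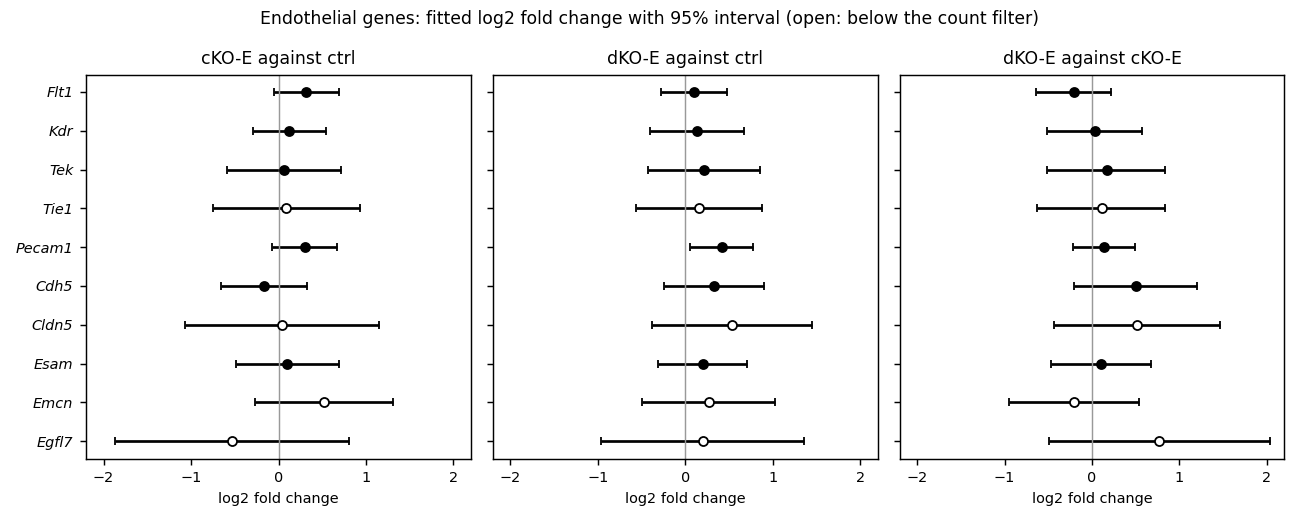
Fitted log2 fold changes of the 10 genes (horizontal axes) with 95% intervals in the 3 comparisons. Filled points are the 6 genes with enough counts for the test, and open points are the other 4, taken from the fit that kept every gene with 1 count. Every interval but that of *Pecam1* in dKO-E against ctrl (0.06 to 0.77) holds 0.

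The setting of the vessels was read mainly from genes outside the 10. They were described from 11 lists written from general knowledge, and many of their genes are also expressed by neural cells. The counts called stand beside the 17.2%, 15.5% and 15% of all genes called in cKO-E against ctrl, dKO-E against ctrl and dKO-E against cKO-E. Of 44 other endothelial genes, 43 were found and 18 were tested in cKO-E against ctrl, with 2 higher, 1 lower and a median log2 fold change of 0.19. *Stab1*, a scavenger receptor of endothelium and macrophages, rose by 1.95 on the log2 scale, the scale of every change that follows (SE 0.23, adjusted p = 2.24e-05 from edgeR), from 2.67 ± 0.592 CPM (SD, n = 7) to 10.2 ± 2.58 (SD, n = 5), and it passed the count filter only where cKO-E was compared. *Shank3*, a scaffold protein that neurons also make, rose by 0.49, and *Mecom*, a transcription factor, fell by 0.77. The comparison of dKO-E with ctrl called 0 of the 15 tested (1 at an unadjusted p under 0.05, median 0.13). Between dKO-E and cKO-E, *Mecom* was higher (0.76) and *Stab1* lower (-1.03), and the other 18 of 20 were not called. *Eng*, a co-receptor for transforming growth factor β on endothelium, was at 0.07, 0.49 and 0.43 in the 3 comparisons, none of them called. *Cd34*, an endothelial and blood progenitor marker, was at 3.71 ± 1.30, 3.97 ± 2.28 and 4.11 ± 2.05 CPM, and *Ramp2*, a partner of the adrenomedullin receptor, at 1.87 ± 1.49, 3.07 ± 1.21 and 2.34 ± 0.880 CPM in ctrl, cKO-E and dKO-E (SD, n = 7, 5 and 7).

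The ligands that act on these receptors are made largely by other cells of the tissue. *Vegfa*, the main ligand of *Kdr*, was at 41.1 ± 4.70 CPM in ctrl, 41.9 ± 3.8 CPM in cKO-E and 37.3 ± 9.10 CPM in dKO-E (mean ± SD of 7, 5 and 7 embryos), with log2 fold changes of 0.02 (interval -0.19 to 0.22), -0.08 (-0.31 to 0.16) and -0.08 (-0.35 to 0.18) in the 3 comparisons, none called. In cKO-E against ctrl, 16 of 29 genes in the list of ligands and other receptors were tested, 2 were higher and 3 lower (median 0.14). *Vegfc*, a VEGF that acts mainly on lymphatic endothelium, fell by 0.67, from 73.0 ± 12.3 to 45.9 ± 13.8 CPM (SD, n = 7 and 5; adjusted p = 0.0107 from edgeR), and *Vegfb* fell by 0.41. *Nrp1*, a co-receptor for VEGF and semaphorins that neurons also express, fell by 0.70 (adjusted p = 8.15e-05), and its relative *Nrp2* rose by 0.55. *Cxcr4*, the receptor of the chemokine *Cxcl12*, rose by 0.73.

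In dKO-E against ctrl, *Nrp1* fell by 0.61, *Nrp2* fell by 0.55 and *Cxcl12* rose by 0.75 (adjusted p = 0.021 from edgeR), among 16 tested with a median of 0.00. *Nrp1* was thus called lower in both mutants, at 274 ± 27.1 CPM in ctrl, 169 ± 28.3 CPM in cKO-E and 178 ± 28.1 CPM in dKO-E (mean ± SD of 7, 5 and 7 embryos), with the same ctrl embryos in both comparisons. *Nrp2* was at 74.1 ± 6.17, 109 ± 16.1 and 50.8 ± 9.89 CPM. Between dKO-E and cKO-E, 4 of 17 were lower and 0 higher (median -0.08): *Nrp2* (-1.09, adjusted p = 1.15e-05), *Ackr3* (-0.63), a scavenger of *Cxcl12*, and the guidance receptors *Unc5b* (-0.62) and *Plxnd1* (-0.52).

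Genes of arterial, venous and sprouting endothelium included several that neural cells use. In cKO-E against ctrl, 3 of 12 tested genes were higher and 2 lower (median 0.06). *Jag2* (1.03) and *Jag1* (0.48), ligands of Notch, and *Cxcr4* rose, and *Notch1* (-0.41) and its target *Hey1* (-0.55) fell. In dKO-E against ctrl only *Efnb2*, an arterial ephrin that neural cells also express, was called among 12 (-0.19, adjusted p = 0.0479 from edgeR, median 0.06). Between the mutants, 2 of 13 were higher, *Hey1* (0.89) and *Notch1* (0.42), and 3 were lower, *Nr2f2* (-1.55), a venous regulator that also marks migrating interneurons, *Jag1* (-0.75) and *Unc5b* (median -0.11). *Dll4*, a Notch ligand of sprouting endothelial tip cells, was at 1.15 ± 0.806, 1.44 ± 0.928 and 1.04 ± 0.780 CPM in ctrl, cKO-E and dKO-E (SD, n = 7, 5 and 7), and *Dll1*, its neural relative, was at -0.33, -0.06 and 0.28 on the log2 scale in the 3 comparisons, none called.

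Brain vessels form their barrier in response to *Wnt7a* and *Wnt7b* from neural progenitors, read by endothelial *Adgra2* and *Reck*. In cKO-E against ctrl, 1 of 27 barrier genes tested was higher and 3 were lower (14.8%, not above the share of all genes), with a median of -0.09. *Wnt7a* fell by 0.37, from 81.6 ± 7.67 to 62.9 ± 12.3 CPM (SD, n = 7 and 5; adjusted p = 0.0279 from edgeR), *Reck* fell by 0.31 and *Lrp5*, a Wnt co-receptor, fell by 0.46, while *Tgfb2* rose by 0.57. *Wnt7b* was at 0.09 and was not called. For dKO-E against ctrl, 0 of 27 were called (8 at an unadjusted p under 0.05, median -0.05), with *Wnt7b* at -0.29. Between the mutants, *Lsr*, a protein of tight junctions, was higher (0.55) together with *Lrp5* (0.30), and *Tgfb2* was lower (-0.88), among 29 tested with a median of 0.12. *Adgra2* was at 2.51 ± 1.33, 1.97 ± 1.14 and 3.03 ± 2.06 CPM in ctrl, cKO-E and dKO-E (SD, n = 7, 5 and 7) and was not tested.

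Of 35 tested genes that respond to low oxygen, 17.1% were called in cKO-E against ctrl, near the share of all genes, and 11.4% in each of the other comparisons, below it. In cKO-E against ctrl, 2 were higher and 4 lower (median 0.06), with the smallest p for *Aldoc*, a glycolytic enzyme that also marks neural progenitors and glia (-0.76). *Kdm3a* (-0.28), *Hk2* (-0.49) and *Mxi1* (-0.27) also fell and *Fam162a* (0.27) rose. The comparison of dKO-E with ctrl had 2 higher, *Mif* (0.51) and *Bnip3l* (0.31), and 2 lower, *Ddit4* (-0.53) and *Mxi1* (-0.24), with a median of -0.02. Between the mutants, *Aldoc* (0.63) and *Kdm3a* (0.19) were higher and *Ndrg1* (-0.74) and *Hk1* (-0.45) lower, with a median of -0.04. *Slc2a1*, the glucose transporter of brain endothelium and a hypoxia target, was at -0.21, 0.06 and 0.28 in the 3 comparisons and was not called, and *Adm*, the gene of adrenomedullin, was below 1 CPM on average in every genotype.

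Pericytes, which wrap the vessels, were followed by 17 markers. Their summed level was 124 ± 13.4 CPM in ctrl, 132 ± 11.8 CPM in cKO-E and 153 ± 16.3 CPM in dKO-E (mean ± SD of 7, 5 and 7 embryos). Most of this sum was *Notch3*, which neural progenitors also express, at 78.1 ± 10.2, 75.9 ± 5.45 and 102 ± 10.9 CPM in the same order. *Mcam* was called higher in cKO-E (0.42; 1 of 6 tested, median 0.36). *Notch3* was called higher in dKO-E against ctrl (0.41; 1 of 5, median 0.35) and against cKO-E (0.44; 1 of 6, median -0.21). *Pdgfrb*, the receptor by which pericytes are recruited, was at 5.94 ± 0.806, 6.85 ± 0.942 and 7.92 ± 1.92 CPM in ctrl, cKO-E and dKO-E (SD, n = 7, 5 and 7), and its estimates of 0.26, 0.42 and 0.17 were not called. Those of *Rgs5* were 0.29, -0.09 and -0.37, none called, and *Cspg4* was at 2.93 ± 1.09, 3.61 ± 1.56 and 2.64 ± 0.907 CPM.

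Other cell types that a dissected cortex can hold were measured in the same libraries. The erythroid sum, from blood left in the vessels, was 204 ± 30.3, 222 ± 8.73 and 205 ± 33.0 CPM in ctrl, cKO-E and dKO-E (SD, n = 7, 5 and 7; range over all embryos 171 to 271), and 0 of the globin genes tested were called. Markers of microglia and macrophages were higher in cKO-E, at 62.2 to 84.4 CPM in sum, than in ctrl (23.5 to 41.6) and dKO-E (25.9 to 39.3). Of 22 such markers, 5 had enough counts for the test in cKO-E against ctrl and all 5 were called higher, but *Csf1r*, *Mpeg1* and *Dock2* passed the count filter only where cKO-E was compared, so this count is not read as support. *Cx3cr1*, which also passed it in dKO-E against ctrl, rose by 1.17 in cKO-E against ctrl, was at -0.13 and not called in dKO-E against ctrl, and was at -1.30, called lower, between the mutants. *Stab1* moved with these macrophage markers, and the part of macrophages in its rise was not tested. Of the 18 meningeal markers, *Crabp2*, *Ngfr* and *Col15a1* had enough counts for the test and were not called (0 at an unadjusted p under 0.05). The collagen genes among the others were not tested, with means of 6.59, 1.61 and 12.1 CPM for *Col3a1*, 1.74, 0.661 and 3.92 for *Col1a1* and 1.42, 0.271 and 4.91 for *Col1a2* in ctrl, cKO-E and dKO-E, and the sum of the list was 33.2 ± 32.7, 21.3 ± 4.73 and 46.1 ± 36.8 CPM (SD, n = 7, 5 and 7).

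Genes of the neural cells, at which the deletions were directed, were read from the same bulk RNA. Of 12 dorsal progenitor and neuron genes tested, 6 fell in cKO-E against ctrl (50%, median -0.33), among them *Emx1* (-0.34), *Emx2* (-0.62), *Pax6* (-0.35) and *Neurog2* (-0.39). In dKO-E, *Emx2* (-0.45) and *Bcl11b* (-0.42) fell against ctrl (median -0.13), and between the mutants *Emx1* was higher (0.45) and *Tbr1* lower (-0.48), each 16.7% of the 12 and near the share of all genes. Of the genes of ventral telencephalic cells, *Dlx1* was the 1 called higher among 6 tested in cKO-E against ctrl (adjusted p = 0.0263 from edgeR). *Dlx1* passed the count filter only where cKO-E was compared, so its calls are not read as support. It was not among the 5 tested in dKO-E against ctrl, of which 0 were called (0 at an unadjusted p under 0.05). Among 6 tested, *Dlx1* (-1.43), *Gad1* (-0.64), *Gad2* (-0.89) and *Lhx6* (-0.76) fell from cKO-E to dKO-E. Since CPM are shares of a library, a different amount of neural RNA would shift the endothelial share, and the part of this was not tested.

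**Figure D4:**
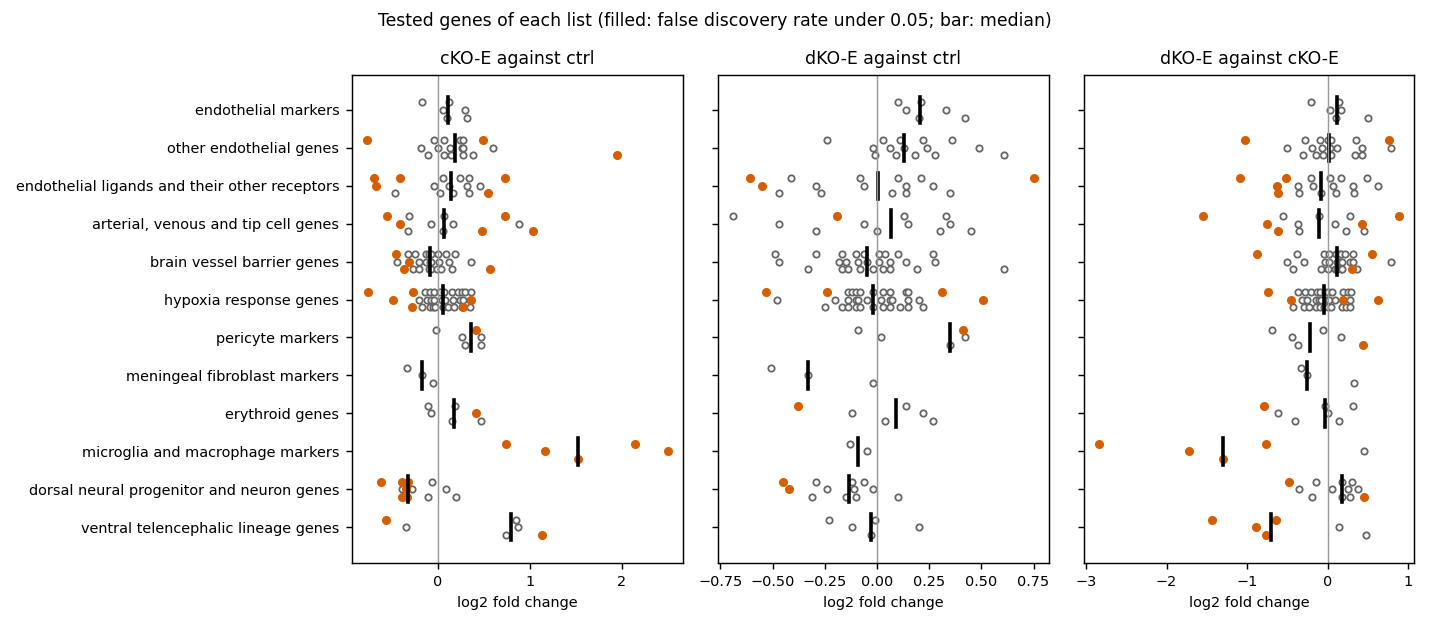
Log2 fold changes (horizontal axes) of the tested genes of the endothelial markers and of 11 further lists (rows) in the 3 comparisons. The list of ligands and other receptors includes *Kdr*, *Flt1* and *Tek*. Filled points were called at an FDR of 0.05, open points were not, and bars are medians. None of the endothelial markers is filled. Of the 22 microglia and macrophage markers, 5 are plotted in cKO-E against ctrl, 3 of which passed the count filter only where cKO-E was compared.

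The genes whose level followed the endothelial sum most closely over the 19 embryos included 3 that encode basement membrane proteins of the vessel wall. Of 12042 genes ranked by Pearson's r of their log2 CPM with the log2 sum, with the members left out, the first 10 were *Cped1* (0.85), *Col4a2* (0.84), *Igf2* (0.83), *H19* (0.82), *Col4a1* (0.81), *Pde7b* (0.81), *Ets1* (0.77), *Dlc1* (0.76), *Arhgap29* (0.75) and *Nid1* (0.74), where the median over all genes was 0.03. *Col4a1*, *Col4a2* and *Nid1* encode the collagen IV chains and nidogen of basement membranes, *Ets1* a transcription factor of endothelial and blood cells, *Dlc1* and *Arhgap29* regulators of small GTPases, and *Igf2* and *H19* are neighbouring imprinted genes. Spearman's rank correlation ran from 0.65 to 0.82 for these 10. Without dKO-E B and ctrl F, the embryos farthest from the median sum, r ran from 0.62 to 0.78, and without the 4 embryos high in meningeal markers from 0.37 to 0.69. Of the 43 other endothelial genes found, 22 could be ranked, with a median r of 0.36, and 3 of them, *Adgrf5* (0.69), *Eng* (0.68) and *Fli1* (0.63), were among the first 100. The points share library, depth and scaling, and no p is given.

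These 10 genes were chosen because they follow a sum that differed little between genotypes, so their calls are a description, beside the shares of all genes given above. edgeR called 0 of 10 in cKO-E against ctrl (1 at an unadjusted p under 0.05), 0 of the 9 tested in dKO-E against ctrl (1), and 0 of 10 between dKO-E and cKO-E (0). The abundant *Col4a1*, at 53.1 CPM on average, had log2 fold changes of 0.11 (SE 0.16), 0.22 (SE 0.19) and 0.13 (SE 0.18), and *Col4a2*, at 46.8 CPM, of 0.03 (SE 0.16), 0.16 (SE 0.19) and 0.15 (SE 0.19). *Pde7b* came nearest to a call, at 0.72 (SE 0.27, adjusted p = 0.0774 from edgeR) in dKO-E against ctrl.

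**Figure D5:**
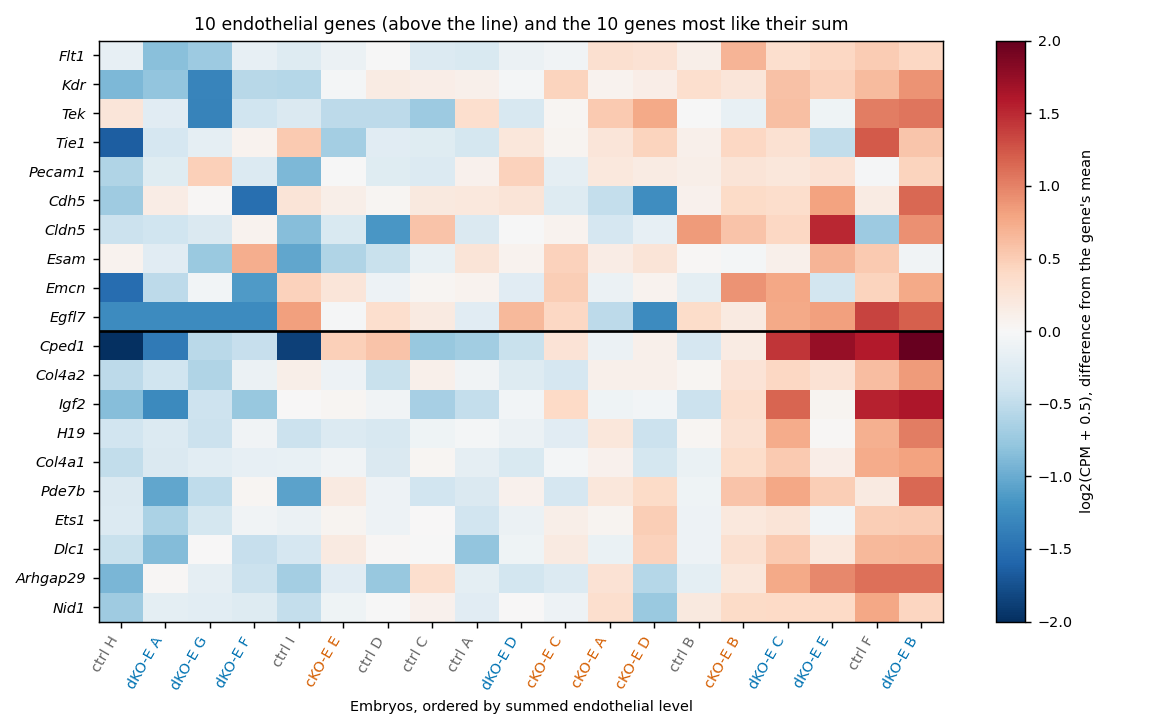
Heat map of log2(CPM + 0.5), as the difference from each gene's mean over 19 embryos, for the 10 endothelial genes (above the line) and the 10 genes of highest correlation with their sum (below it). Columns are embryos ordered by summed endothelial level, from ctrl H at 43.4 to dKO-E B at 105 CPM, with labels coloured by genotype. The genotypes are interspersed along the order.

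The promoters of the members were read for binding motifs of the GATA, ETS and FOX families, whose factors act in endothelial genes. RefSeq promoters (GRCm38.p6) were at hand for 7 of the 10 genes, as 9 start sites. The 250 bases before each start site were searched on both strands, and 239 to 250 of them are shown here. The ETS cores searched were CCGGAAG together with the related word CAGGAAG, the motif for GATA factors was written as AGATAA, and that for FOX factors was the word TGTTTAC. The second ETS core, CAGGAAG, was found in 3 of the 9 promoters, those of *Emcn* and 2 of *Egfl7*, beside 10.8% of 32851 promoters. The other motifs were found in 0 of 9, beside 6.91% for CCGGAAG, 9.99% for AGATAA and 3.17% for TGTTTAC. A promoter of *Egfl7* (chr2:26583615-26583863, plus strand) and that of *Emcn* (chr3:137340828-137341066, plus strand) show the ETS core, in capitals. Those of *Kdr* (chr5:75978459-75978705, minus strand) and *Flt1* (chr5:147726012-147726261, minus strand), the pair with the most similar levels, are shown beside them and hold none of the 4 motifs in this window. Each runs 5′ to 3′ on the strand of its gene and ends at the base before the first annotated exon base, which can lie before the RefSeq start site.
Egfl7: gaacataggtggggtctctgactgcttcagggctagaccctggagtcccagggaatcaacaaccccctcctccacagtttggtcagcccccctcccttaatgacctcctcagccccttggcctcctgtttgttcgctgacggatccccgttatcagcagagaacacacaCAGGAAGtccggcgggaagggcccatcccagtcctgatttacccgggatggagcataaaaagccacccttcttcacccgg
Emcn: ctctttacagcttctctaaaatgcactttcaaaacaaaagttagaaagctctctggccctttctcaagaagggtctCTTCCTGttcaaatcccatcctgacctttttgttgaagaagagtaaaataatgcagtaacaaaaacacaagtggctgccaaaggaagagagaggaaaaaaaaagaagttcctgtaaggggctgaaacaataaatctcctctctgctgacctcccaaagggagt
Kdr: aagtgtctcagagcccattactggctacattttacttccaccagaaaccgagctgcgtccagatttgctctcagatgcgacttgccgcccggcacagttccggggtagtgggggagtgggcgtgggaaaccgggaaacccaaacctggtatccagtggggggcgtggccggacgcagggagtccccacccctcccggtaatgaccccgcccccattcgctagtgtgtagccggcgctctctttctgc
Flt1: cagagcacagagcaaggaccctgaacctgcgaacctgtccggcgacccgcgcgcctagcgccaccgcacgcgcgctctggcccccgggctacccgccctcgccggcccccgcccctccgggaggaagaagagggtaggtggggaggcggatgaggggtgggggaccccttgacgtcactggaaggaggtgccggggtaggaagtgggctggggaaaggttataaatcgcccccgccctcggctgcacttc
In *Emcn* the core is on the opposite strand and reads CTTCCTG. A match of these letters is a description of the sequence and not of a bound site. Other words that ETS, GATA or FOX factors can bind were not searched for, so a count of 0 covers the written words only.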

How the data were processed

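Libraries had been made by Click-seq with molecular identifiers after removal of ribosomal RNA. The authors trimmed reads with cutadapt 1.13, aligned them with STAR 2.5.2a to mm10, removed duplicates with UMI-tools 0.5.3 and counted reads per gene with HTSeq 0.6.1p1. The values they deposited are counts, without normalization, for 51912 genes. The strand setting of the counting is not given in the sources used here. Gene symbols and coordinates come from GENCODE M21, where 51719 identifiers were found. Reads in no feature were 4.96% to 12.5% of a file and ambiguous reads 1.78% to 2.07%, and these stayed out of library sizes.

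Each comparison was fitted alone with edgeR 4.0.16 (R 4.3.3): filterByExpr at a minimum count of 10, TMM factors, the quasi-likelihood test without covariates and Benjamini-Hochberg adjustment over all genes tested. SE is the log2 fold change divided by the square root of the F statistic. CPM use TMM factors over all 19 libraries. Plots were made with matplotlib 3.10.9 in Python 3.11.15. The scripts were tested on simulated counts. Alternatives were DESeq2 1.42.0, other normalizations, filters, covariates, blocks, subsets of embryos and stricter thresholds, and each embryo left out. The members and lists were chosen with earlier results of these data known. Named from the other lists were the genes called at an FDR of 0.05 (at most the 5 of smallest p per list and comparison) and the first 3 genes of each list, apart from some that are not reported here. Nothing in the labels ties embryos across groups but the litter. Counting limits cover counting error only. Chromatin data were not analysed here.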

Additional observations from a re-analysis of the deposited data

Results flagged for a closer look

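Of 33 sets of values checked for a sample far from the rest (the CPM of each gene and their sum, in each genotype), 1 stood out. *Cdh5* in ctrl H was at 3.62 CPM, with the next ctrl embryo at 6.44 CPM, a gap of 0.715 of the range of the 7 ctrl embryos and above Dixon's 95% limit. Chance alone flags about 1 in 20 such sets. ctrl H also had the lowest endothelial sum of the series, 43.4 CPM. The effect of the dKO-E genotype differed between the sexes for 0 of 11381 genes at an FDR of 0.05 by edgeR (589 at an unadjusted p under 0.05), and the lowest adjusted p of a tested member was 0.909 for *Esam*.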

How the results depend on the processing

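The count of members called was the same in 93 of 95 alternatives. The log2 ratio of the sum ran from 0.03 to 0.27 in cKO-E against ctrl, -0.40 to 0.27 in dKO-E against ctrl (-0.17 without the embryos high in meningeal markers) and -0.44 to 0.10 in dKO-E against cKO-E, and moved by more than the SD between embryos in 3 of 70 alternatives. Scaling by total counts called 1 member in dKO-E against ctrl, *Pecam1* (0.52, adjusted p = 0.0355 from edgeR). Embryos of different genotypes share letters but not a source, and the deviations of same-letter embryos did not correlate throughout (r from -0.36 to 0.15). With the letter as a replicate block, 1 member was called in dKO-E against cKO-E, *Cdh5* (0.80), and 0 in the other comparisons, while *Kdr* came to -0.08 in dKO-E against ctrl and *Esam* to -0.02 in dKO-E against cKO-E. A litter block changed no call and could not be fitted for dKO-E against cKO-E, which share no litter.

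Directions turned for estimates of up to 0.50, and the cause was not tested. In cKO-E against ctrl, *Tek* came to -0.02 with sex as covariate, -0.12 with the litter block, -0.46 in batch 2, -0.13 in females and -0.04 without the libraries of lowest depth, *Cdh5* to 0.05 with the litter block, *Flt1* to -0.03 in batch 2 and *Esam* to -0.27 in females. In dKO-E against ctrl, *Esam* came to -0.17 with the litter block and -0.33 in females, and in batch 2 *Flt1* came to -0.40, *Kdr* to -0.63, *Tek* to -1.12, *Cdh5* to -0.90 and the log2 ratio of the sum to -0.40. In dKO-E against cKO-E, *Kdr* came to -0.05 by the likelihood-ratio test, -0.06 by DESeq2 and -0.08 with batch as covariate, and *Esam* to -0.12 with sex as covariate, -0.21 in batch 1 and -0.03 in females. There, batch 2 alone gave -0.81 for *Kdr*, -0.06 for *Pecam1*, -0.84 for *Cdh5* and -0.44 for the sum.

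Without the embryos high in meningeal markers, a choice made after seeing the data, *Flt1*, *Kdr*, *Tek* and *Cdh5* came to -0.21, -0.46, -0.32 and -0.19 in dKO-E against ctrl, and *Kdr*, *Tek*, *Cdh5* and the sum to -0.67, -0.55, -0.04 and -0.44 in dKO-E against cKO-E. Leaving out each embryo called 0 members, and estimates ran from -0.11 to 0.24 (*Tek*) and -0.04 to 0.26 (*Esam*) in cKO-E against ctrl, from -0.07 to 0.24 (*Kdr*) and -0.06 to 0.37 (*Tek*) in dKO-E against ctrl, and from -0.18 to 0.12 (*Kdr*), -0.11 to 0.33 (*Tek*) and -0.06 to 0.25 (*Esam*) in dKO-E against cKO-E. The sum ran from 0.08 to 0.27, 0.01 to 0.26 and -0.15 to 0.07 in these comparisons. Depth limits *Tie1*, *Cldn5*, *Emcn* and *Egfl7*, which passed the count filter in 0 comparisons.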
